A study of Homo sapiens with 6 samples.

Results

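MDM2, CDKN1A, GADD45A, PLK3, SESN1, TP53I3, ZMAT3, RRM2B and PPM1D are direct transcriptional targets of p53. These 9 genes were chosen by symbol as established targets from the 57773 genes of the deposited table, and all 9 were found and passed the filter on low counts, which left 17805 genes. RNA sequencing was done on total RNA of HEK293, a human embryonic kidney line, in 3 libraries labelled as TRDMT1 knockdown and 3 labelled as control. TRDMT1, also called DNMT2, is an RNA methyltransferase that modifies a cytosine of certain tRNAs, and the design asked what its depletion does to the transcriptome. The labels do not state how the knockdown was made, whether it was 1 clone, or what the control cells carried. RNA went through a bisulfite-based kit before library preparation, per the labels' protocols, and no source used here says whether the table came from RNA so treated. No label ties the libraries of a group to separate cultures, so each p-value measures the spread between libraries and no more, and that spread may be technical.

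p53 is a transcription factor that is kept scarce in unstressed cells by MDM2, a ubiquitin ligase that p53 itself induces. After DNA damage or other stress it accumulates and raises genes that halt the cell cycle, repair DNA, limit oxidative damage or start apoptosis. HEK293 cells carry adenovirus early genes whose products bind p53 and repress its activity.

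The response elements of p53 are pairs of a half-site of 10 bases. RefSeq promoter windows on GRCh38.p14, which run from 250 bases before to 50 bases after a start, were found for 7 of the 9 members, in 13 windows. The 3 windows below are printed up to the start because the first is the classical p53-responsive promoter of MDM2, the second is the other member with a match, and the third belongs to PLK3, the member that passed the test. Capitals mark matches to the full p53 site with no spacer and at most 3 mismatches, a rule chosen after the sequences were seen. Coordinates are of the 250 printed bases, 5′ to 3′ on the gene's strand.
MDM2, internal start, chr12:68808767-68809016, plus strand: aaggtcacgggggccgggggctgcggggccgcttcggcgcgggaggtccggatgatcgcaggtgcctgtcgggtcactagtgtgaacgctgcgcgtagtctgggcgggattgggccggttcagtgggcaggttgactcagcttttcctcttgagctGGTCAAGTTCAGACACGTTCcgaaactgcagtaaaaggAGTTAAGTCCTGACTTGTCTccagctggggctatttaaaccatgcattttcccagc
SESN1, inner start, chr6:109008989-109009238, minus strand: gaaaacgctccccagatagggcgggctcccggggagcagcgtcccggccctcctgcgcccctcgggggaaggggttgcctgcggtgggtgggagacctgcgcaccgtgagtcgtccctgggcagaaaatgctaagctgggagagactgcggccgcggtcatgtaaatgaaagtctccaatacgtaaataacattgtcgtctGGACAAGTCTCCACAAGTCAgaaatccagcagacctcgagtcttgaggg
PLK3, chr1:44800127-44800376, plus strand: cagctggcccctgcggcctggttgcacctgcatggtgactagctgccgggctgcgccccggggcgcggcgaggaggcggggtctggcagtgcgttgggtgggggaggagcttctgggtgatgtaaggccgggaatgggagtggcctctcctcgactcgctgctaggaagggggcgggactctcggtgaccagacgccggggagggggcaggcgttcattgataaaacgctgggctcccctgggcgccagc

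The MDM2 window held 2 such matches, with 2 and 3 mismatches, beginning 94 and 56 bases before the start. The SESN1 window held 1 match with 3 mismatches, beginning 49 bases before the start, whose first half-site had no mismatch. Searched on both strands, which read alike for this palindromic consensus, a match of this kind was present in 3 of the 13 member windows, of which 2 were overlapping MDM2 windows, and in 5.2% of all 35116 windows. A single half-site with no mismatch was present in 1 of the 13 member windows and in 6.63% of all windows. A pair of half-sites with no mismatch and a spacer of 0 to 13 bases was found in 0 of the 13 member windows and in 0.0285% of all windows. The PLK3 window had no match of any of these kinds. A match is a description of the letters, and no match says only that these letters were not in the window.

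Depth ran from 36455950 to 40088993 counts in libraries labelled knockdown and from 24776040 to 26802182 in libraries labelled control. TRDMT1 had 5.73, 5.76 and 5.73 CPM in libraries labelled knockdown, against 3.76, 4.63 and 2.91 CPM in libraries labelled control, where CPM are read counts relative to the library size after TMM, a scaling that aligns most genes between libraries. The targeted gene thus went against the labels, being higher under the knockdown label in every library (log2 fold change 0.61 ± 0.21, adjusted p = 0.0705, edgeR; exact two-sided permutation p = 0.1, the smallest possible here). Directions below are therefore between libraries as labelled. Control replicate 2 stood apart, with correlations across genes of 0.963 and 0.951 with control replicates 1 and 3, against 0.989 between those 2 and at least 0.995 among the libraries labelled knockdown. The HEK293 markers PAX2, VIM, KRT8, KRT18, CDH2 and NEFM were detected in all 6 libraries. Of the markers of other cell types, PTPRC, CD3E and HBB had at most 2 counts in any library, and ALB had 25, 17 and 13 counts in libraries labelled knockdown, against 2, 2 and 6 in libraries labelled control. COL1A1, a fibroblast marker, had 1382, 1277 and 1594 counts in libraries labelled knockdown, against 996, 134 and 1264 in libraries labelled control. Whether other cells had a part in the results below was not tested.

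Of the 9 p53 targets 1 was called by edgeR's quasi-likelihood test at an adjusted p of at most 0.05, PLK3, which was higher under the knockdown label, and 0 were called lower. At an unadjusted p under 0.05 these counts were 2 higher and 1 lower, beside 16.7% and 22.6% of all genes. Among all genes tested 24% were called, 9.29% higher and 14.7% lower, which is 1654 and 2613 genes, against 1888 higher and 1649 lower when the plain library total was used for scaling. The groups did not overlap for 4 members, 3 of them higher and 1 lower, while 49.9% of all genes did not overlap, 23.9% higher and 26% lower. The median log2 fold change over the members was 0, against −0.04 over all 17805 genes tested. The members did not share a direction. PLK3, MDM2, PPM1D and CDKN1A had positive fold changes, RRM2B, ZMAT3 and TP53I3 negative ones, and GADD45A and SESN1 lay within 0.01 of no change, while scaling by the library total turned SESN1 and TP53I3 positive and removal of GC and length trends turned SESN1, ZMAT3 and RRM2B positive. The count of members called depended on the fit. Without control replicate 2 it was 5, of which 3 were higher and 2 lower, beside 48.5% of all genes (22.9% higher, 25.6% lower). DESeq2 called 2 members, PLK3 and PPM1D, beside 26.9% of all genes. Voom with quality weights called 7, of which 3 were higher and 4 lower, beside 57.4% (27.6% higher, 29.7% lower). With trends of GC content and length removed 0 were called, beside 21.9%. It was 0 also without control replicate 1, beside 11% of all genes, and without knockdown replicate 1, 2 or 3, beside 6.99%, 7.37% and 6.67%. In bulk RNA, fewer cells with a transcript and less of it per cell cannot be told apart.

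**Figure D1:**
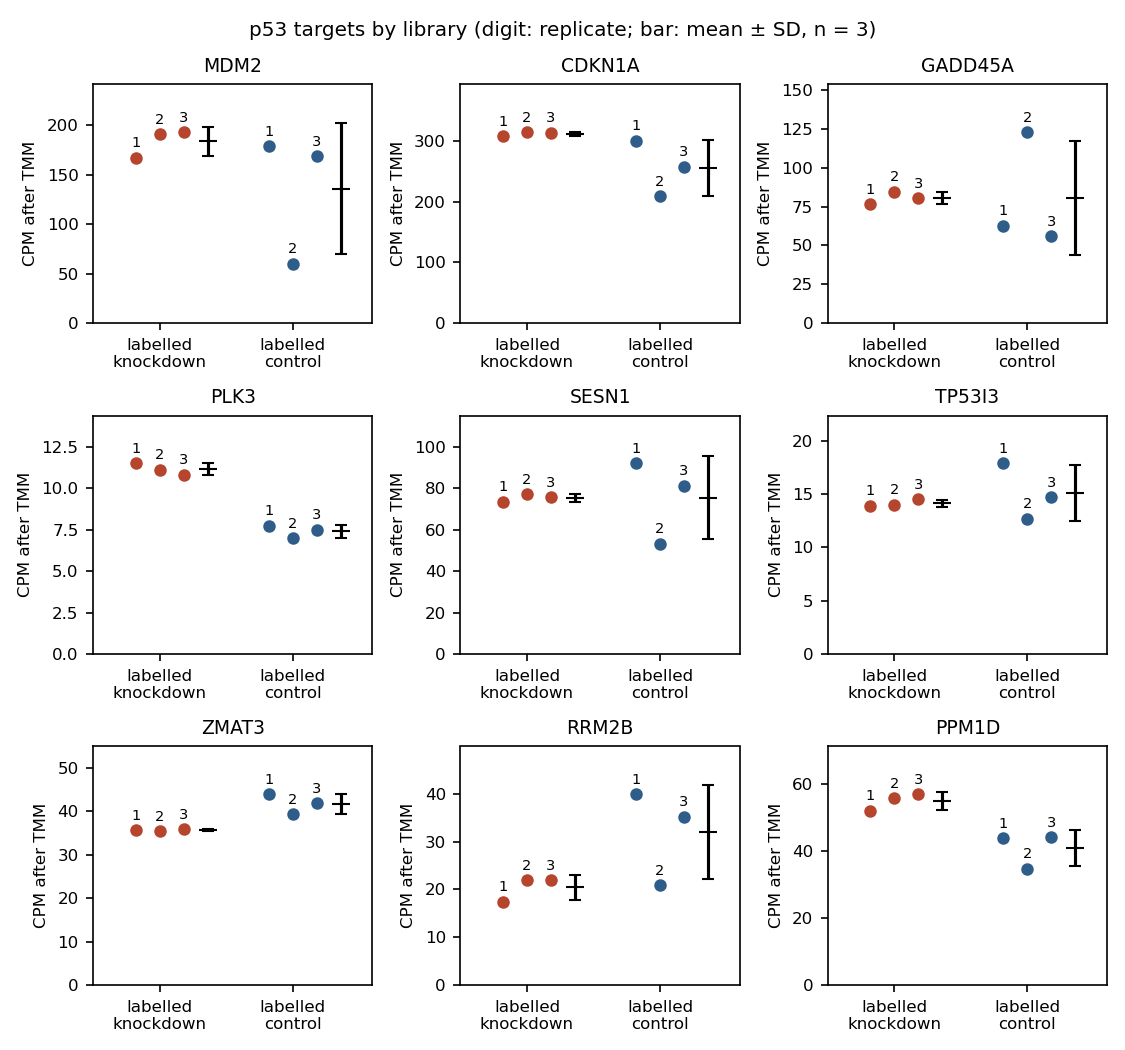
Normalised level (CPM after TMM, linear axis from 0) of each of the 9 p53 targets in each library, with the 3 libraries labelled knockdown on the left and the 3 labelled control on the right; digits are replicate numbers and the bar is the mean ± SD. The libraries labelled knockdown lie close together, and control replicate 2 is the lowest control for 8 of the 9 genes and the highest for GADD45A.

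The feedback inhibitors MDM2 and PPM1D act on p53 itself. MDM2, the ubiquitin ligase that marks p53 for degradation, stood at 167, 191 and 193 CPM in libraries labelled knockdown, against 179, 59.9 and 169 CPM in control replicates 1, 2 and 3. The groups overlapped, and control replicate 2 stood far below the other 5 libraries. The fitted log2 fold change was 0.43 ± 0.38 (95% interval −0.46 to 1.32, adjusted p = 0.429, edgeR) and 0.08 without control replicate 2 (adjusted p = 0.492). In plain counts MDM2 had 1204 reads in control replicate 2, which is 48.6 CPM of the library total with a 95% Wilson interval of 45.9 to 51.4, against 179 and 174 CPM in control replicates 1 and 3. The low value lies far outside counting error.

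PPM1D, also called WIP1, is a phosphatase that removes activating phosphates from p53 and from the kinases upstream of it. It stood at 52.1, 55.8 and 57 CPM in libraries labelled knockdown, against 43.8, 34.8 and 44.2 CPM in libraries labelled control. The groups did not overlap, with the libraries labelled knockdown higher. A log2 fold change of 0.42 ± 0.14, or 1.34-fold, missed the threshold (95% interval 0.10 to 0.74, adjusted p = 0.0611, edgeR). DESeq2 called it (0.46, adjusted p = 0.0307). Without control replicate 2 edgeR called it as well (0.33, adjusted p = 0.00913), and the adjusted p of all alternatives lay between 0.00268 and 0.209. Its chromosome, 17, had a median of 0.10 over 813 tested protein-coding genes.

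CDKN1A, GADD45A and PLK3 belong to the arrest arm. CDKN1A encodes p21, the inhibitor of cyclin-dependent kinases through which p53 halts the cycle. It stood at 308, 315 and 314 CPM in libraries labelled knockdown, against 301, 209 and 258 CPM in libraries labelled control. The groups did not overlap, with the libraries labelled knockdown higher and control replicate 1 just below them. Its log2 fold change was 0.29 ± 0.16 (95% interval −0.09 to 0.66, adjusted p = 0.222, edgeR). It was 0.16 without control replicate 2 and 0.07 with GC and length trends removed (adjusted p = 0.783).

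GADD45A, a small stress sensor that binds p21 and the replication clamp, stood at 76.7, 84.6 and 80.4 CPM in libraries labelled knockdown, against 62.7, 123 and 55.8 CPM in libraries labelled control. Control replicate 2 was the highest of all 6 libraries and the other 2 controls the lowest, so that both group means were 80.5 CPM. On the log2 scale the fold change was 0.0018 ± 0.29 (95% interval −0.69 to 0.70, adjusted p = 0.997, edgeR). Without control replicate 2 it was 0.45 and called (adjusted p = 0.00266).

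PLK3 is a polo-like kinase activated by stress. It stood at 11.5, 11.1 and 10.8 CPM in libraries labelled knockdown, against 7.74, 6.97 and 7.49 CPM in libraries labelled control. The groups did not overlap, and control replicate 2 lay close to the other controls. With 433 to 461 reads in libraries labelled knockdown and 140 to 206 in libraries labelled control, knockdown replicate 3 had a 95% Wilson interval of 10.5 to 12.6 CPM of the plain total, the lowest under its label, and control replicate 1 one of 6.72 to 8.84, the highest under its label. PLK3 rose by 0.59 ± 0.14 on the log2 scale, or 1.5-fold (95% interval 0.27 to 0.91, adjusted p = 0.0225, edgeR), and 0.55 without control replicate 2 (adjusted p = 0.00281). The call ended, with a log2 fold change of 0.28 (adjusted p = 0.154), when trends with GC content and length were removed, and it ended too when any 1 library labelled knockdown was left out (0.57 to 0.62, adjusted p = 0.104 to 0.111) or control replicate 1 (0.66, adjusted p = 0.0537). Across all alternatives the adjusted p ran from 0.00118 to 0.154.

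**Figure D2:**
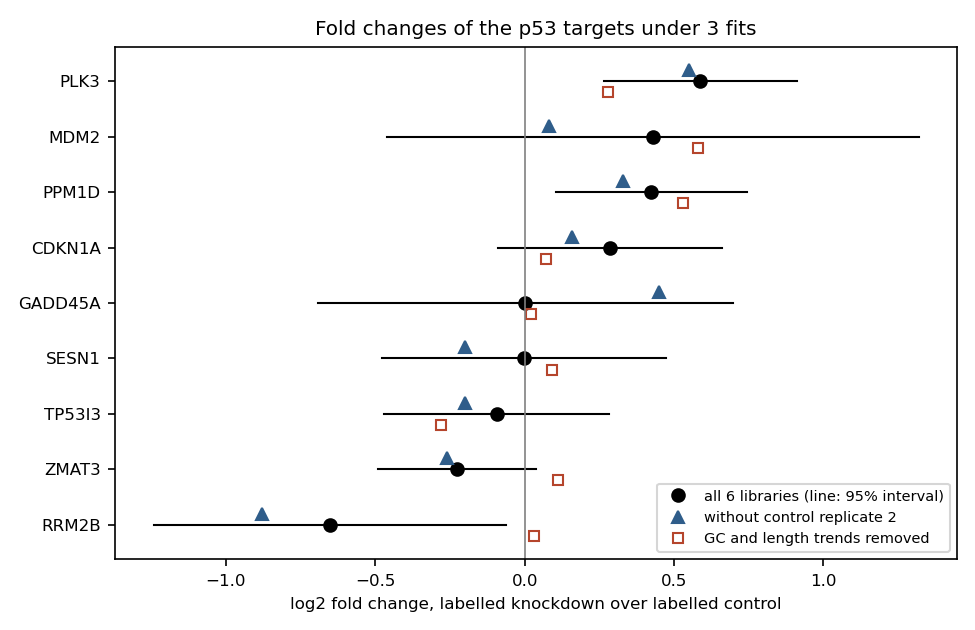
Log2 fold change of each p53 target, libraries labelled knockdown over libraries labelled control (horizontal axis), with all 6 libraries (circles, line for the 95% interval), without control replicate 2 (triangles) and with GC and length trends removed (open squares). Only the lines of PLK3, PPM1D and RRM2B leave out 0, and RRM2B moves between −0.88 and 0.03 with the choice of fit.

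SESN1, TP53I3 and RRM2B serve metabolism and DNA repair. SESN1, a sestrin that restrains growth signalling through mTORC1, stood at 73.5, 77.1 and 75.6 CPM in libraries labelled knockdown, against 92.1, 53.3 and 81.2 CPM in libraries labelled control. Control replicate 2 was the lowest of all 6 libraries and the other 2 controls the highest. Its fold change was −0.0037 ± 0.20 on the log2 scale (95% interval −0.48 to 0.47, adjusted p = 0.992, edgeR), and it was 0.02 with RLE scaling and 0.14 with the plain library total. With voom and quality weights SESN1 stood at −0.23 and was called lower (adjusted p = 0.0307).

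TP53I3, also called PIG3, is a quinone oxidoreductase that produces reactive oxygen. It stood at 13.9, 14 and 14.5 CPM in libraries labelled knockdown, against 17.9, 12.7 and 14.7 CPM in libraries labelled control. The libraries labelled knockdown lay between the extremes of the controls. On the log2 scale the fold change was −0.09 ± 0.16 (95% interval −0.47 to 0.28, adjusted p = 0.695, edgeR), and 0.06 when the plain library total was used for scaling. Voom with quality weights called TP53I3 lower (−0.28, adjusted p = 0.0338).

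RRM2B, the small subunit of ribonucleotide reductase that p53 induces to supply nucleotides for repair, had the most negative fold change. It stood at 17.4, 21.9 and 21.9 CPM in libraries labelled knockdown, against 39.9, 20.9 and 35.2 CPM in libraries labelled control. Control replicate 2 lay among the libraries labelled knockdown and the other 2 controls well above them. The fitted log2 fold change was −0.65 ± 0.25, which is 1.57-fold more under the control label (95% interval −1.24 to −0.06, adjusted p = 0.0997, edgeR). It was −0.88 and called without control replicate 2 (adjusted p = 0.000361), and 0.03 with GC and length trends removed (adjusted p = 0.913). RRM2B has the lowest GC content of the members, at 36.4%.

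ZMAT3, also called WIG1, is a zinc finger protein that binds RNA and affects the stability and splicing of other messages. It stood at 35.6, 35.4 and 35.9 CPM in libraries labelled knockdown, against 43.9, 39.3 and 41.8 CPM in libraries labelled control. The groups did not overlap, with the libraries labelled knockdown lower. The log2 fold change was −0.23 ± 0.11 (95% interval −0.49 to 0.04, adjusted p = 0.179, edgeR), −0.26 without control replicate 2 (adjusted p = 0.0217), and 0.11 with GC and length trends removed (adjusted p = 0.531). Its chromosome, 3, had a median of −0.29 over 777 tested protein-coding genes.

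Levels can be compared between genes only per length, in RPKM as deposited. CDKN1A was the most abundant member, at 111 ± 1.75 RPKM in libraries labelled knockdown and 81.9 ± 22.6 RPKM in libraries labelled control. GADD45A followed at 41.4 ± 2.1 and 35.4 ± 11.2 RPKM, then MDM2 at 24.3 ± 1.98 and 16.7 ± 9.19 RPKM, PPM1D at 18 ± 0.89 and 12 ± 2.89 RPKM, and SESN1 at 15.6 ± 0.40 and 14.2 ± 5.05 RPKM. In the libraries labelled knockdown these 5 did not overlap one another, whereas in libraries labelled control MDM2, PPM1D and SESN1 did. TP53I3 stood at 6.51 ± 0.18 and 6.23 ± 1.65 RPKM. Below it by mean were ZMAT3 at 3.93 ± 0.04 and 4.1 ± 0.68 RPKM, RRM2B at 3.91 ± 0.51 and 5.58 ± 2.21 RPKM, and PLK3 at 3.4 ± 0.10 and 2.02 ± 0.34 RPKM. ZMAT3 and RRM2B overlapped in both groups and RRM2B and PLK3 in libraries labelled knockdown, and TP53I3 overlapped both RRM2B and ZMAT3 in libraries labelled control. MDM2, at 6.06 RPKM in control replicate 2, also overlapped TP53I3 and RRM2B in libraries labelled control.

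The spread of the members differed between the groups as it did for other genes. Over the 9 members the median coefficient of variation of CPM was 3.36% in libraries labelled knockdown and 18.1% in libraries labelled control, against 6.02% and 24.3% over all genes tested. MDM2 and GADD45A varied most among the controls, at 48.6% and 45.9%, and PLK3 and ZMAT3 least, at 5.34% and 5.52%. Control replicate 2 was the lowest control for 8 of the 9 members and the lowest of all 6 libraries for 6. Among all genes tested, control replicate 2 was the lowest control for 44.2% and the highest for 42.8%, and the lowest of all 6 libraries for 32.2%.

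Measured as control replicate 2 minus the mean of control replicates 1 and 3 in log2 CPM, MDM2 stood at −1.54, which placed it at percentile 3.7 of all genes tested. RRM2B followed at −0.84 (percentile 13.9), SESN1 at −0.70 (18.3) and CDKN1A at −0.42 (29.6), with TP53I3 at −0.35 and PPM1D at −0.34. PLK3 at −0.13 and ZMAT3 at −0.12 lay near the middle, and GADD45A at 1.06 was at percentile 91.1. The median over the members was −0.35 and over all genes −0.01, while 10.4% of all genes were at least 1 log2 unit lower in control replicate 2 and 9.92% at least 1 higher. Direct targets of the same factor therefore lay at both ends of the distribution in this library. With 1 library there is no test of this difference.

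**Figure D3:**
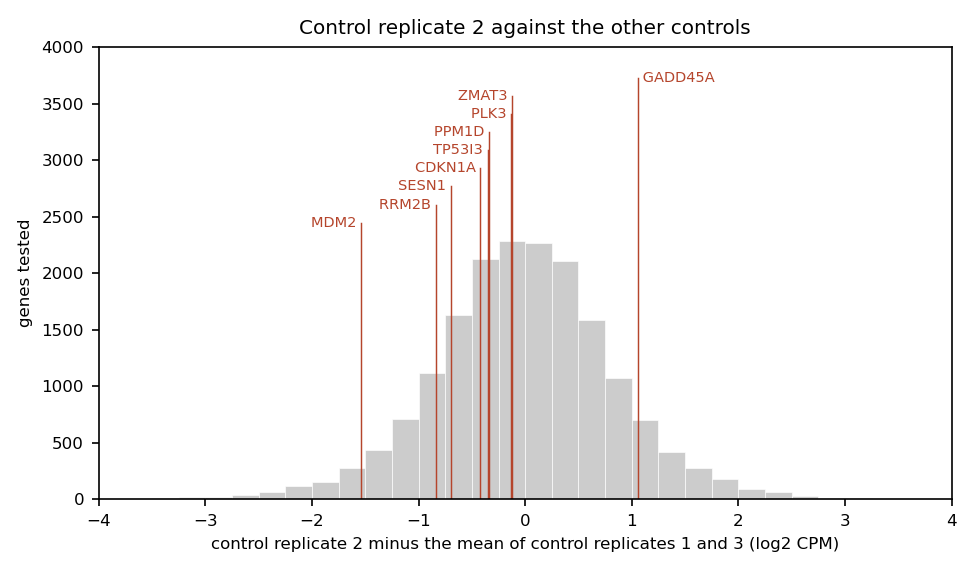
Distribution over all genes tested (grey bars, vertical axis: number of genes) of log2 CPM in control replicate 2 minus the mean of control replicates 1 and 3 (horizontal axis), with the 9 p53 targets marked by lines. MDM2 lies at −1.54 and GADD45A at 1.06, with the other 7 members between −0.84 and −0.12.

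The genes whose profile over the 6 libraries was most like that of MDM2, by Euclidean distance of centred log2 CPM, were SLC30A1, a zinc exporter (0.116), CSF1, a macrophage growth factor (0.146), and AP1S3, a subunit of a vesicle coat adaptor (0.155). SLC30A1 stood at 33.9, 40.1 and 42 CPM in libraries labelled knockdown, against 37.3, 12 and 33.3 CPM in libraries labelled control. The nearest to CDKN1A were the ubiquitin ligase RNF14 (0.0455), the synapsin SYN2 (0.0695) and the tetraspanin TSPAN9 (0.0777). The deposited ontology terms put 4 of the 9 members, SESN1, CDKN1A, ZMAT3 and PLK3, under the cellular response to DNA damage, against 0.876% of all genes tested. Under negative regulation of the apoptotic process they put 4, RRM2B, CDKN1A, MDM2 and PLK3, against 2.21%. Under cell cycle arrest they put 3, SESN1, GADD45A and CDKN1A, against 0.68%. The members were chosen as p53 targets, so these shares follow from the choice and are not a result of these libraries.

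Over the 9 members the log2 fold change and the GC content of the longest transcript correlated at Pearson r = 0.53 and Spearman rho = 0.53 (n = 9 genes, which share the same 6 libraries), and r was −0.29 with GC and length trends removed. In GENCODE release 29 an exon of MDM2, CDKN1A, SESN1, TP53I3 and PLK3 overlaps a gene on the opposite strand, and MDM2 a further gene on its own strand. No source used here gives the strand setting of the counting, so reads of these neighbours cannot be told apart from theirs.

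Other direct targets of p53, listed by role, also moved both ways. Of 87 listed and 83 tested, 7 were called higher and 4 lower, which is 13.3% against 24% of all genes, with a median log2 fold change of 0.06. With library-total scaling 10 were higher and 2 lower, or 14.5% against 19.9% of all genes (10.6% higher, 9.26% lower). Without control replicate 2, 45 were called, 27 higher and 18 lower, or 53.6% against 48.5% of all genes. Of the metabolism genes 2 of 15 were higher and 1 lower, or 20% against 24% of all genes. SESN2, the sestrin that also answers to the stress factor ATF4, stood at 129 ± 2.87 CPM in libraries labelled knockdown and 60.3 ± 7.17 CPM in libraries labelled control (log2 fold change 1.10 ± 0.13, adjusted p = 0.00208, edgeR), while SESN1 was not called. SESN2 was called in all 14 alternatives. NADSYN1, an enzyme of NAD synthesis, was higher (0.57 ± 0.13, called in 8 of 14 alternatives, and 0.11 and not called with GC and length trends removed), and GPX1, a glutathione peroxidase, lower (−0.47 ± 0.13, adjusted p = 0.0431, edgeR). The GPX1 call held in 5 of the 14 alternatives and ended, among others, with RLE or library-total scaling and with no filter, with adjusted p of up to 0.237. NADSYN1 lies on chromosome 11, GPX1 on 3 and SESN2 on 1, whose tested protein-coding genes had medians of 0.305, −0.292 and −0.084.

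Of the 24 signalling targets tested, 3 were higher and 1 lower, or 16.7% against 24% of all genes (9.29% higher, 14.7% lower). The chloride cotransporter SLC12A4 (1.26 ± 0.16, adjusted p = 0.00278, edgeR) and the calcium channel ORAI3 (1.01 ± 0.17) both lie on chromosome 16, whose tested protein-coding genes had a median of 0.528. The plexin PLXNB2 was higher too (0.94 ± 0.19) and the growth factor PGF lower (−0.95 ± 0.20). PLXNB2 lies on chromosome 22 and PGF on chromosome 14, whose medians were 0.052 and −0.502. SLC12A4 was called in all 14 alternatives, ORAI3 in 13, PLXNB2 in 10 and PGF in 8. Of 9 DNA repair targets 1 was higher and 1 lower, or 22.2% against 24% of all genes. FANCC of the Fanconi pathway was higher (0.72 ± 0.14, and 0.45 and not called with trends removed). REV3L, the catalytic subunit of a translesion polymerase, was lower, at 10.8 ± 0.66 CPM in libraries labelled knockdown and 68.9 ± 25.1 CPM in libraries labelled control (−2.67 ± 0.29, adjusted p = 0.00179, edgeR). REV3L was called in all 14 alternatives and FANCC in 10. FANCC lies on chromosome 9 and REV3L on chromosome 6, whose medians were 0.284 and −0.138.

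Of 10 cell cycle targets 1 was higher, the repressor E2F7 (0.63 ± 0.17, adjusted p = 0.0408, edgeR), and 0 lower, beside 9.29% and 14.7% of all genes. At an unadjusted p under 0.05 these counts were 2 and 1, beside 16.7% and 22.6% of all genes, and DESeq2 called 2 and 0, beside 11.6% and 15.2%. E2F7 was called in 8 of 14 alternatives, and not with library-total scaling, with limma-trend, without control replicate 1 or without any 1 library labelled knockdown (adjusted p of up to 0.14). Of 18 apoptosis targets tested 0 were higher, against 4 (16.7% of all genes) at an unadjusted p under 0.05 and 3 of 19 (11.6% of all genes) by DESeq2, and 1 was lower, TRIAP1, an inhibitor of caspase activation (−0.73 ± 0.16, adjusted p = 0.0194), while the list's median was 0.21. TRIAP1 was called in 10 of 14 alternatives. E2F7 and TRIAP1 both lie on chromosome 12, whose tested protein-coding genes had a median of −0.119. The list's share called was 5.56%, against 24% of all genes. Without control replicate 2, 8 apoptosis targets were higher and 3 lower, or 61.1% against 48.5% of all genes (22.9% higher, 25.6% lower). With GC and length trends removed 4 were higher and 1 lower, beside 8.62% and 13.3%. Without control replicate 3 the counts stayed at 0 and 1, beside 12.4% and 16.8%. Of 7 feedback targets tested 0 were called, with the smallest p for the ubiquitin ligase RCHY1 (−0.49 ± 0.16, adjusted p = 0.064) and for NINJ1 (0.39 ± 0.13, adjusted p = 0.065). At an unadjusted p under 0.05, 1 feedback target was higher and 2 lower, beside 16.7% and 22.6% of all genes, and DESeq2 called 1 of 8 higher, beside 11.6%. Without control replicate 2, 5 of 10 cell cycle and 3 of 8 feedback targets were called, or 50% and 37.5% against 48.5%.

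**Figure D4:**
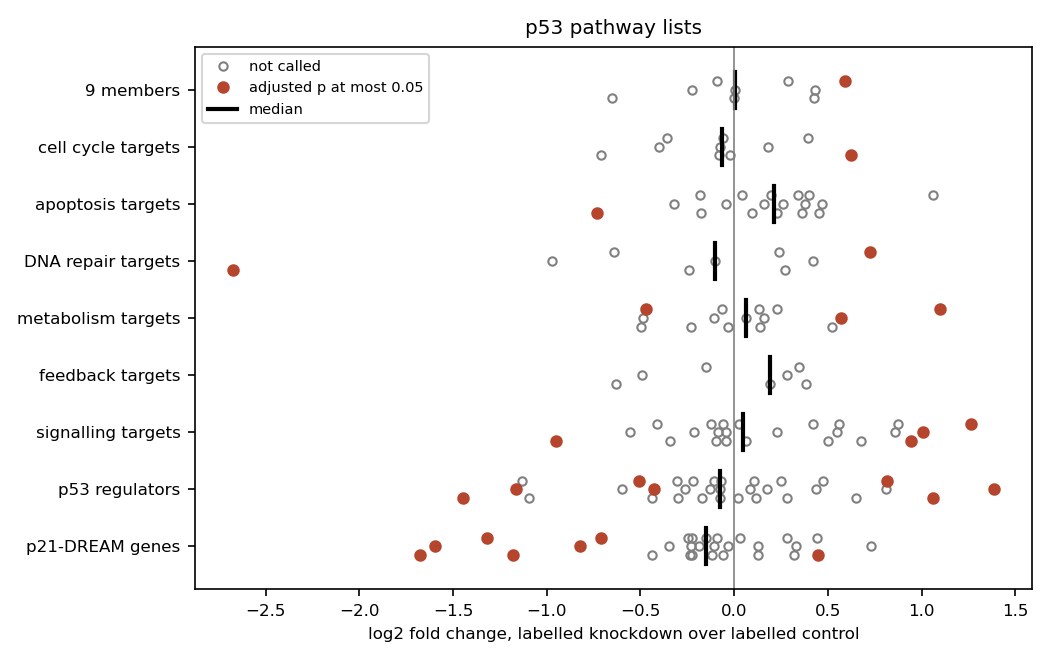
Log2 fold change, libraries labelled knockdown over libraries labelled control (horizontal axis), of each tested gene of the p53 lists; filled points passed an adjusted p of 0.05 and the black line is the median of the list. Called genes lie on both sides of 0 in the metabolism, DNA repair, signalling, regulator and p21-DREAM lists.

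Of 32 tested regulators of p53, 7 were called, 3 higher and 4 lower, which is 21.9% against 24% of all genes, around a list median of −0.08. The list thus stood near the share of all genes in this fit. With library-total scaling 2 were higher and 1 lower, or 9.38% against 19.9% of all genes. Without control replicate 2, 21 were called, 8 higher and 13 lower, or 65.6% against 48.5% of all genes. Of the kinases that signal DNA damage to p53, ATM and ATR were called lower, ATM at 18.1 ± 1.90 CPM in libraries labelled knockdown and 40.5 ± 11.9 CPM in libraries labelled control (−1.17 ± 0.23, adjusted p = 0.0134, edgeR), and ATR at 13.8 ± 0.997 and 37.5 ± 12.7 CPM (−1.44 ± 0.27, adjusted p = 0.0111). The other such kinases were not called in this fit, PRKDC at 0.65 ± 0.31 (adjusted p = 0.165), CHEK1 at 0.08 ± 0.15 and CHEK2 at −0.44 ± 0.24. Without control replicate 2 PRKDC (0.37, adjusted p = 0.023) and CHEK1 (0.25, adjusted p = 0.0325) were called higher. CHEK2 was not called there (−0.10, adjusted p = 0.365). PRMT5, an arginine methyltransferase of p53, was lower (−0.51 ± 0.13), as was KMT5A, a lysine methyltransferase, named after its values were seen (−0.43 ± 0.13). The relative TP73 (0.82 ± 0.14, adjusted p = 0.00878), the p53-binding cullin CUL9 (1.06 ± 0.21) and the acetyltransferase CREBBP (1.39 ± 0.36, adjusted p = 0.0341) were higher. PRMT5 lies on chromosome 14 and CREBBP on chromosome 16, whose tested protein-coding genes had medians of −0.502 and 0.528. The chromosome median had the sign of the change also for ATR (−0.292) and KMT5A (−0.119). It had the opposite sign for ATM (0.305), TP73 (−0.084) and CUL9 (−0.138). MDM4, the partner of MDM2, was not called on all 6 libraries, at −0.26 ± 0.12 (adjusted p = 0.142, edgeR). Without control replicate 2 MDM4 was called lower (−0.32, adjusted p = 0.00959). ATM was called in 8 of 14 alternatives and ATR in 9. Both calls ended with limma-trend, without control replicate 1 and without any 1 library labelled knockdown, and that of ATM with library-total scaling, with adjusted p of up to 0.109 for ATM and 0.0826 for ATR. The other calls of this list held in 11 alternatives for TP73, 10 for CUL9, 8 for CREBBP, 6 for PRMT5 and 5 for KMT5A. With GC and length trends removed ATM stood at −0.78 and ATR at −1.14. In that fit 11 regulators were called, 3 higher and 8 lower, or 34.4% against 21.9% of all genes (8.62% higher, 13.3% lower).

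Cell cycle genes that p21 lowers through the DREAM repressor complex were tested because CDKN1A is a member. Of 29 tested, 1 was higher and 6 lower, which is 24.1% against 24% of all genes, with a median of −0.15. The split depended on the scaling, with 4 higher and 2 lower when the plain library total was used. This was 20.7% against 19.9% of all genes (10.6% higher, 9.26% lower). Without control replicate 2, 21 were called, 5 higher and 16 lower, or 72.4% against 48.5% of all genes. With voom 24 were called, 6 higher and 18 lower, or 82.8% against 57.4%. Without control replicate 3, 4 were called, all lower, or 13.8% against 29.2%. The kinase CDK1 stood at 81.3 ± 6.24 CPM in libraries labelled knockdown and 260 ± 26.8 CPM in libraries labelled control (−1.68 ± 0.13, adjusted p = 0.000566, edgeR). The centriole kinase PLK4 (−1.18 ± 0.13), the hyaluronan receptor HMMR (−1.60 ± 0.35), the kinase NEK2 (−0.82 ± 0.19), the kinesin KIF23 (−0.71 ± 0.19) and the exchange factor ECT2 (−1.32 ± 0.35) were lower too, with adjusted p of at most 0.0354. MYBL2, named after its values were seen, was higher (0.45 ± 0.13, adjusted p = 0.0422). MYBL2 lies on chromosome 20, whose tested protein-coding genes had a median of 0.28. For the 6 lower genes the chromosome medians were −0.077 (CDK1), −0.16 (PLK4), −0.15 (HMMR), −0.084 (NEK2), −0.044 (KIF23) and −0.292 (ECT2). CDKN1A itself did not pass the test. With GC and length trends removed 3 were lower, among them CDK1 at −0.94, and 2 higher. This was 17.2% against 21.9% of all genes (8.62% higher, 13.3% lower), and HMMR, NEK2, ECT2 and MYBL2 were not called. CDK1 and PLK4 were called in all 14 alternatives, whereas HMMR, NEK2 and MYBL2 were called in 7, KIF23 in 6 and ECT2 in 4.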

How the data were processed

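Total RNA of 6 HEK293 libraries, 3 labelled knockdown and 3 labelled control, was sequenced after rRNA depletion, a bisulfite-based RNA methylation kit and a stranded library kit, per the labels' protocols. The aligner, strand setting and annotation of the counting are not given in the sources used here. The authors deposited read counts per gene, not normalized, and RPKM values, which the deposited table scales by exonic length and library total; these equalled the scaled counts within 0.006 for 100% of values. Per the submitters' processing notes, HTSeq 0.6.1, StringTie 1, DESeq2 1.6.3, DESeq 1.18.0, edgeR 3.4.6, bcl2fastq 2.17.1.14 and build hg19 were named, with no roles. Table columns were matched to samples by the short names in the descriptions, which for the groups run opposite to the titles.

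The test on counts was that of edgeR 4.0.16 under R 4.3.3 (quasi-likelihood F test, TMM, filterByExpr, robust), with Benjamini-Hochberg adjustment over all 17805 genes and a threshold of 0.05. Fold changes are log2, labelled knockdown over labelled control, ± standard error. Both groups share 1 estimate of spread, although edgeR's biological coefficient of variation was 5.44% for the knockdown label and 32% for the control label. No 2 libraries agreed within sampling noise, and each counted once in n. Wilson intervals cover counting error only. The fit was tested on simulated data in which both groups had the same spread, so that test cannot show how it behaves under their unequal spread. Alternatives were RLE and library-total scaling, no filter, DESeq2 1.42.0, limma-trend on log2(RPKM + 1) and voom with quality weights (limma 3.58.1), a replicate block, leaving out each library, and smooth GC and length trends per library removed as offsets (mgcv 1.9.3). GC content came from GENCODE release 29, for 97.2% of tested genes, and promoter sequences from RefSeq (GRCh38.p14), both another build than the authors used.

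The members and lists were chosen with earlier results of these data known, so no p-value is adjusted over a list and no set test was run. Named were all members, each list's called genes (the 6 with the smallest p where more were called, the 2 with the smallest p where none was), and the 3 genes nearest in profile to MDM2 and to CDKN1A with a mean of at least 5 CPM. MDM4, PRKDC, CHEK1, CHEK2, KMT5A and MYBL2 were added after their values were seen.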

Additional observations from a re-analysis of the deposited data

How the results depend on the processing

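Under every alternative PLK3, MDM2, CDKN1A and PPM1D kept a positive fold change, whereas the number of members called depended on the fit. MDM2 came close to no change without control replicate 2 (0.08), and CDKN1A with trends removed (0.07). DESeq2 called 2 members, voom with quality weights 7, and the fit with GC and length trends removed 0. Leaving out 1 library gave 0 to 5, with 5 (3 higher, 2 lower) without control replicate 2 and 0 without control replicate 1 or any library labelled knockdown. For all genes the count was 10214 with voom and 1191 to 9063 with 1 library left out. The extremes were 9063 without control replicate 2 and 1191 without knockdown replicate 3, with 1246 and 1315 without knockdown replicates 1 and 2 and 2044 without control replicate 1. The other settings stayed within 1.5 times of 4267. Scaling by the library total gave a median of all genes of 0.13, against −0.04, and limma-trend on log2(RPKM + 1) 1800 calls higher and 1289 lower.

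Other p53 targets called numbered 19 with DESeq2 (22.4%, against 26.9% of all genes) and 49 with voom (59%, against 57.4%). They numbered 20 with trends removed (24.1%, against 21.9%), and 3 to 45 with 1 library left out. The lowest of these was without knockdown replicate 1 (3.57%, against 6.99%) and the highest without control replicate 2 (53.6%, against 48.5%). There were 4 without knockdown replicate 2 or 3 (4.82%, against 7.37% and 6.67%) and 5 without control replicate 1 (5.95%, against 11%). Regulators called numbered 3 with library-total scaling or limma-trend (9.38%, against 19.9% and 14.6% of all genes) and 4 with no filter (12.1%, against 11.7%). They numbered 22 with voom (68.8%, against 57.4%) and 11 with trends removed (34.4%, against 21.9%). With 1 library left out there were 0 to 21. There were 0 without any library labelled knockdown, 1 without control replicate 1 (3.12%, against 11%) and 21 without control replicate 2 (65.6%, against 48.5%). The p21-DREAM genes called numbered 24 with voom (82.8%, against 57.4% of all genes) and 2 to 21 with 1 library left out. There were 2 without control replicate 1 (6.9%, against 11%) or any library labelled knockdown (6.9%, against 6.67% to 7.37%). There were 4 without control replicate 3 (13.8%, against 29.2%) and 21 without control replicate 2 (72.4%, against 48.5%). TRDMT1 was called higher with library-total scaling (0.80), DESeq2 (0.65), voom (0.66), trends removed (1.06) and without control replicate 2 (0.79), and ran from 0.45 to 0.79 with 1 library left out.

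Signs changed only for members that were not called in the fit on all libraries. SESN1 was positive with RLE (0.02) and library-total scaling (0.14), no filter (0.06), DESeq2 (0.03), limma-trend (0.19) and trends removed (0.09), and ran from −0.20 to 0.19 with 1 library left out. TP53I3 was positive with library-total scaling (0.06) and limma-trend (0.08) and ran from −0.20 to 0.08 with 1 library left out. GADD45A ran from −0.21 to 0.45 in the same way. ZMAT3 and RRM2B were positive with trends removed (0.11 and 0.03). The cause of these changes was not tested, beyond the fewer libraries that leaving 1 out entails.

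Replicate numbers did not pair the libraries: deviations from the group means correlated at −0.04, 0.057 and 0.001 between libraries of the same number, and not every library correlated best with its own number. With the replicate block 2976 of all genes were called (16.7%), 4 p21-DREAM genes and 0 members, with PLK3 at 0.59 (adjusted p = 0.0831, edgeR) and SESN1 at 0.03.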
